A study of Mus musculus with 12 samples.

Results

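The 7 genes Igf2bp1, Igf2bp2, Igf2bp3, Lin28a, Lin28b, Hmga2 and Plag1, known from other tissues as a fetal growth programme, were followed in the mouse thymus at 2 weeks (2W), 6 weeks (6W) and 3 months (3M). They were picked by gene symbol out of 22843 symbols in the deposited mRNA table, with their levels in these libraries already known. Their own levels are therefore given as a description, with no test. All samples were whole thymus of male C57BL/6 mice with no treatment, and each age had 2 total RNA libraries and 2 small RNA libraries. Age was the only difference named between the groups.

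The 3 Igf2bp genes encode RNA-binding proteins that hold on to mRNAs such as that of Igf2, stabilise them and steer their translation. Lin28a and Lin28b encode RNA-binding proteins that block the maturation of let-7, a miRNA family that in turn lowers the mRNAs of Lin28, Igf2bp, Hmga2 and other growth genes. Hmga2 encodes a chromatin protein that bends DNA at AT-rich stretches, and Plag1 encodes a zinc finger transcription factor known to act on the Igf2 promoters. As a group these genes are active in the embryo, are silenced in most organs around birth and return in many tumours. In the blood system Lin28b and Igf2bp3 are known for the fetal type of lymphocyte production.

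let-7 belongs to this account because its seed, bases 2 to 8, is what pairs with the target mRNAs. The small RNA table held 12 features from the 5p arm of the let-7 family, and 10 of them matched a RefSeq mature miRNA by name, each with the same sequence. The most abundant members, let-7e-5p and the one member with another seed, let-7j, are printed here from RefSeq, build GRCm38.p6, 5′ to 3′, with the seed in capitals.
mmu-let-7f-5p (chr13:48537889-48537910, - strand, and a second copy at chrX:151912353-151912374, + strand): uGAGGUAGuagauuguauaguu
mmu-let-7a-5p (chr13:48538239-48538260, - strand): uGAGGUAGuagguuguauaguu
mmu-let-7g-5p (chr9:106178846-106178867, + strand): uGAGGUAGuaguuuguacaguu
mmu-let-7c-5p (chr16:77599672-77599693, + strand, and a second copy at chr15:85706616-85706637, + strand): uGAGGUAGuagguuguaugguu
mmu-let-7i-5p (chr10:122985698-122985719, - strand): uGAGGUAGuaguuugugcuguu
mmu-let-7b-5p (chr15:85707325-85707346, + strand): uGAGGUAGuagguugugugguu
mmu-let-7d-5p (chr13:48536078-48536099, - strand): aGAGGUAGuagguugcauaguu
mmu-let-7e-5p (chr17:17830366-17830387, + strand): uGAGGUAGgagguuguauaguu
mmu-let-7j (chr3:140028281-140028304, + strand): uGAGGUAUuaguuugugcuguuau
The seed GAGGUAG was shared by 11 of the 12 features, and let-7j alone carried GAGGUAU. A feature the table calls let-7-x starts with the whole of let-7b-5p and runs on to 24 bases. The members thus differ mainly in their second part, and some tags may have been divided among near-identical members.

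The total RNA libraries held between 16355881 and 22387148 estimated counts on named genes, and the small RNA libraries between 9181478 and 10994118 tags. A level of 3 counts, the most that a count of 0 allows, was worth 0.132 to 0.190 CPM (counts scaled to library size) in the total RNA libraries and covers counting error only. All 10 thymocyte markers were detected, with a summed level of 13133 to 17896 CPM. Replicate 2 at 3M stood apart by its red blood cell genes, with a sum of 2167 CPM against 402 to 816 CPM in the other 5 libraries. Nothing in the labels says whether the replicates are different mice, and the methods call them biological replicates. In bulk tissue, fewer cells of a type and less RNA per cell cannot be told apart.

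Igf2bp3 was the most abundant of the 7 genes at 2W and was lower at each later age. Its level was 80.0 and 101 CPM in the 2W libraries, 15.5 and 16.8 CPM at 6W, and 2.77 and 2.46 CPM at 3M. No library of one age overlapped a library of another. The mean at 2W was 5.63 times the mean at 6W, the mean at 6W was 6.16 times that at 3M, and the mean at 2W was 34.7 times that at 3M. On the log2 scale the differences were -2.49 ± 0.15 for 6W against 2W, -2.63 ± 0.18 for 3M against 6W and -5.12 ± 0.18 for 3M against 2W (standard error of the fit, 2 libraries per age). Among 14805 genes past the filter on low counts, 17 had a lower value than Igf2bp3 for 3M against 2W. Nearly all of its counts belonged to the annotated transcript ENSMUST00000031838. An assembled transcript, TCONS_00100532, had 55.8 and 25.4 estimated counts at 2W and was listed at 0 in the other 4 libraries.

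Plag1 took another course after 6W. It stood at 29.7 and 44.0 CPM at 2W, 6.45 and 5.96 CPM at 6W, and 7.64 and 6.18 CPM at 3M. The 2W libraries lay apart from all others, while the 6W and 3M libraries overlapped. The log2 difference was -2.57 ± 0.23 for 6W against 2W and 0.15 ± 0.23 for 3M against 6W, with -2.42 ± 0.23 over the whole span. From 2W to 6W the sizes for Plag1 and Igf2bp3 were within their standard errors of each other, and from 6W to 3M only the Igf2bp3 level went on to lower values. The main Plag1 transcript, ENSMUST00000003369, carried 463 and 701 estimated counts at 2W and between 119 and 135 later.

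Igf2bp2 was faint. It had 30.1 and 25.6 estimated counts at 2W, 12.8 and 6.41 at 6W, and 6.40 and 8.64 at 3M, or 1.90 and 1.59 CPM, then 0.630 and 0.265 CPM, then 0.361 and 0.403 CPM. The 2W libraries were higher than the other 4, and the 6W and 3M libraries overlapped. The log2 difference was -1.96 ± 0.54 for 6W against 2W and -0.21 ± 0.58 for 3M against 6W. Its counts switched between 2 annotated transcripts from library to library, and in 2W replicate 1 an assembled transcript held 13.5 of them, so only the sum over the gene was read. Igf2bp2 passed the filter on low counts through its 2W libraries, since its later counts were near those of Hmga2, which did not pass. A lower later level was thus favoured by the filter itself.

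**Figure D1:**
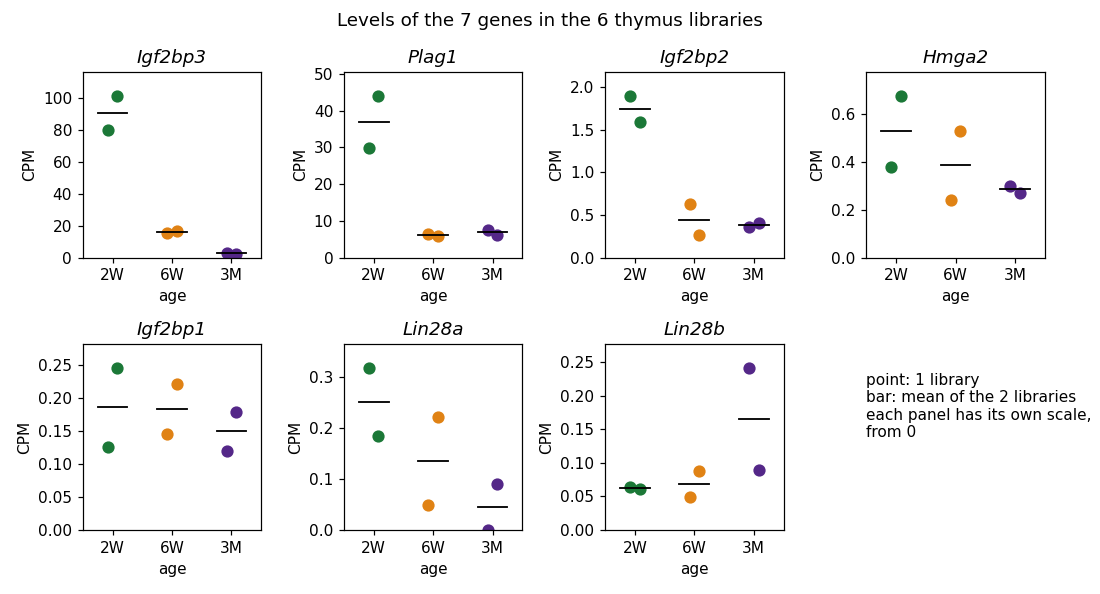
Level of each of the 7 genes in CPM (vertical axis, from 0, with its own scale per gene) by age, 1 point per library and a bar at the mean of 2. Igf2bp3 steps from 80.0 and 101 CPM to 2.77 and 2.46 CPM, Plag1 steps once and stays near 6 to 8 CPM, and the lower row stays under 0.4 CPM throughout.

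The other 4 genes hardly registered and did not pass the filter on low counts, so no fold change is given. Hmga2 had 6 and 11 estimated counts at 2W, 5 and 12 at 6W, and 5 and 6 at 3M. Igf2bp1 had 2.09 and 4, then 3 and 5.18, then 2 and 4.14. Lin28a had 5 and 3, then 1 and 5, then 0 and 2. Lin28b had 1 and 1, then 1 and 2, then 4 and 2. In CPM each of the 4 genes had overlapping libraries between 2W and 6W. Between 2W and 3M the libraries did not overlap for Hmga2 and Lin28a (lower at 3M) or Lin28b (higher at 3M), on counts of 5 to 11, 0 to 5 and 1 to 4. All values but those of Hmga2 lie near the 3 counts that a count of 0 allows. No difference with age is read for these 4 genes at this depth.

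Levels of different genes can be set beside each other only per length, in the deposited FPKM. At 2W the order was Igf2bp3 with a mean of 18.7 FPKM, Plag1 with 7.87, Igf2bp2 with 0.435, Hmga2 with 0.09 and 0.16 in its libraries, Lin28a with 0.065, Igf2bp1 with 0.020 and Lin28b with 0.010, and only the last pair overlapped between libraries. At 6W Igf2bp3 with 3.51 FPKM and Plag1 with 1.48 FPKM kept these places, and from Igf2bp2 down every pair of neighbours overlapped. At 3M Plag1 led with 1.75 FPKM (2.06 and 1.43 in the libraries), and Igf2bp3 followed with 0.565 FPKM (0.59 and 0.54). The paralogs of Igf2bp3 never came near it at 2W, although at 3M the gap to Igf2bp2, at 0.105 FPKM, was smaller.

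The table of circular RNAs listed 6300 circRNAs and none of them came from any of the 7 genes. That table held 10663 to 21914 junction counts per library, and a count of 0 allows up to 3. The lncRNA table gives no gene symbols and was not used here.

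The 250 bases before the RefSeq start were at hand for 5 of the 7 genes, those other than Igf2bp1 and Plag1. The letters CACGTG (the E-box, the same on both strands) were found once before Igf2bp3 and once before Lin28b, and in 6.02% of all 32851 promoters of the same length. They are shown in capitals within 30 bases on the gene's strand, build GRCm38.p6, because Igf2bp3 is the gene the results turn on.
Igf2bp3 (chr6:49214960-49214989, - strand): gctgggattcctCACGTGagacgttgattt
Lin28b (chr10:45470233-45470262, - strand): aattgacagagtCACGTGtgctcaggggcc
The first base of the E-box lies 23 bases before the Igf2bp3 start and 49 before that of Lin28b. The GC box GGGCGG (or CCGCCC) was found at 2 places before Igf2bp2 and at 1 before Hmga2, and in 32.7% of all promoters. CCAAT (or ATTGG) was found once before Igf2bp3 and once before Lin28b, and in 33.8% of all promoters, and TATAAA (or TTTATA) before none of the 5 against 12.4% of all. The Igf2bp2 window was 77.2% G and C with 40 CpG, and the median over all promoters was 52.4% and 6 CpG. Such matches are letters in a window and say nothing of binding.

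The tests below use other measures, namely the let-7 miRNAs and lists of other genes. These lists too were chosen with earlier results of these data known, so their p-values do not come from an unseen set. Calls are edgeR quasi-likelihood tests on all 6 libraries with a Benjamini-Hochberg adjusted p under 0.05. The 3 comparisons share libraries, so they are not independent of each other.

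The let-7 family was abundant at every age, and its sum was not called in any comparison. The 12 5p features made up 10.9% and 11.3% of all miRNA tags at 2W, 10.01% and 10.8% at 6W, and 12.1% and 10.8% at 3M. Treated as 1 feature, their sum was 106427 and 115369 CPM at 2W, 100893 and 109447 CPM at 6W, and 119045 and 108196 CPM at 3M. The ages overlapped, and the log2 difference was -0.08 ± 0.19 for 6W against 2W (edgeR adjusted p = 0.838), 0.11 ± 0.19 for 3M against 6W (0.829) and 0.03 ± 0.19 for 3M against 2W (0.905). Whether the let-7 level bears on the Igf2bp3 level was not tested.

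let-7f-5p was the most abundant member, with 37161 and 34487 CPM at 2W, 30573 and 32119 CPM at 6W, and 31517 and 33322 CPM at 3M. let-7a-5p had 18517 and 18188, then 17400 and 18355, then 21328 and 17151 CPM. let-7g-5p had 14886 and 17698, then 17046 and 18008, then 18312 and 16869 CPM. None of these 3 was called in any comparison, and their log2 differences stayed between -0.19 and 0.11.
let-7c-5p had 12345 and 14191, then 13155 and 14528, then 19789 and 15710 CPM. let-7i-5p had 14919 and 17362, then 13619 and 15028, then 13601 and 13311 CPM. let-7b-5p had 5128 and 5359, then 4743 and 5263, then 8989 and 6671 CPM. For let-7c-5p and let-7b-5p the 3M libraries were the highest, for let-7i-5p the lowest, and none passed the test. The nearest was let-7b-5p for 3M against 2W, with a log2 difference of 0.58 ± 0.20 (edgeR adjusted p = 0.056), which passed in DESeq2 (0.028), with no filter (0.037) and without 3M replicate 2 (0.026).
let-7d-5p had 4028 and 3656, then 3498 and 3585, then 4656 and 3405 CPM, and its other arm, let-7d-3p, had 398 and 354, then 356 and 314, then 432 and 436 CPM. let-7-x had 642 and 802, then 865 and 850, then 1080 and 853 CPM. miR-98-5p, a family member under another name, had 416 and 492, then 324 and 389, then 492 and 364 CPM. No call was made for these 4 features in any comparison.

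let-7e-5p rose, and it was the only 5p feature called. It stood at 271 and 287 CPM at 2W, 309 and 295 CPM at 6W, and 593 and 465 CPM at 3M. Both 3M libraries lay above the other 4. The log2 difference for 3M against 2W was 0.93 ± 0.21 (edgeR adjusted p = 0.0098), and without 3M replicate 1 it was 0.73 with an adjusted p of 0.055. let-7e-5p is a minor member of the sum given above. Among the remaining features, let-7g-3p, the passenger arm of let-7g, fell for 3M against 2W by 3.37 ± 0.87 on the log2 scale (edgeR adjusted p = 0.016) on 29 and 15 tags at 2W, 9 and 7 at 6W, and 4 and 0 at 3M. That call was lost without 2W replicate 1 (adjusted p = 0.115) and without 3M replicate 2 (-2.40, adjusted p = 0.077). Without 3M replicate 1 the fitted value was -7.39, since the remaining 3M library held 0 tags, so the size of the fall rests on single libraries and is not fixed by these counts.

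Of the 24 let-7 family features tested on both arms, 1 was called higher and 1 lower for 3M against 2W, where 13.5% of 822 miRNAs were called higher and 16.4% lower. For 6W against 2W none of the 24 was called in edgeR, and none had an unadjusted p under 0.05, where 2.31% of all miRNAs were called higher and 6.33% lower. For 3M against 6W none was called, 4 had an unadjusted p under 0.05 and DESeq2 called 1, let-7e-5p (log2 difference 0.79, DESeq2 adjusted p = 0.014), where edgeR called 0.487% of all miRNAs higher and 0.365% lower. The median log2 difference of the 12 5p features was -0.05, 0.18 and 0.27 in the order 6W against 2W, 3M against 6W and 3M against 2W, beside -0.13, 0.02 and -0.12 over all miRNAs tested. The features under 100 CPM ranged from 0.00 CPM for miR-98-y and let-7a-2-3p, which failed the filter, to 62.1 CPM for let-7i-3p. Among those tested, let-7a-1-3p and let-7c-2-3p held the same counts in every library, so they are not separate measurements.

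**Figure D2:**
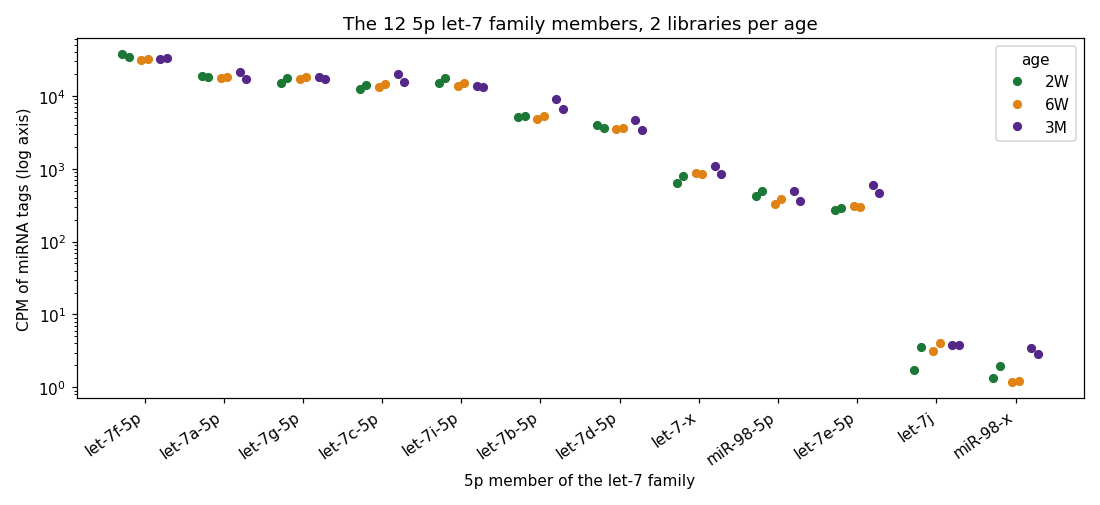
Level of the 12 5p let-7 family features in CPM of miRNA tags (log axis), 1 point per library, coloured by age. The first 7 features lie between 3405 and 37161 CPM with the ages close together, and let-7e-5p shows both 3M libraries above the rest.

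Some let-7 genes sit in clusters with miR-99 and miR-125, and miR-125 is the relative of lin-4, the worm miRNA that also acts on lin-28. These neighbours (RefSeq loci within 60000 bases on the same strand) were chosen after their values were seen, so they are described with no test.
mmu-miR-99a-5p (chr16:77598940-77598961, + strand, 732 bases from let-7c-5p): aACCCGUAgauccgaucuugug
mmu-miR-125b-5p (chr16:77646279-77646300, + strand, 46607 bases from let-7c-5p): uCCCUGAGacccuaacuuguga
mmu-miR-99b-5p (chr17:17830194-17830215, + strand, 172 bases from let-7e-5p): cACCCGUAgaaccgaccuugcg
mmu-miR-125a-5p (chr17:17830817-17830840, + strand, 451 bases from let-7e-5p): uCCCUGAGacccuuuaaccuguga
The capitals are the seeds, which both miR-99 members share and both miR-125 members share, and neither is the let-7 seed. miR-99a-5p had 4539 and 5623 CPM at 2W, 8454 and 10472 CPM at 6W, and 20521 and 15307 CPM at 3M. miR-125b-5p had 8389 and 7366, then 12527 and 9849, then 30671 and 19900 CPM. Their log2 differences for 3M against 2W were 1.82 ± 0.23 and 1.68 ± 0.25, beside 0.42 ± 0.20 for let-7c-5p from the same stretch of the chromosome.
miR-125a-5p had 1055 and 773, then 1680 and 1283, then 4793 and 2436 CPM, a log2 difference of 1.98 ± 0.32. miR-99b-5p had 1909 and 2725, then 2354 and 2798, then 3921 and 3574 CPM, a log2 difference of 0.69 ± 0.22. The let-7e-5p value of 0.93 lies between them. One further neighbour, miR-135a-5p near let-7g-5p, stayed between 0.986 and 2.40 CPM. Several of these miRNAs, let-7c-5p among them, have more than 1 copy in the genome, and whether the levels of neighbours differ in their change was not tested.

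**Figure D3:**
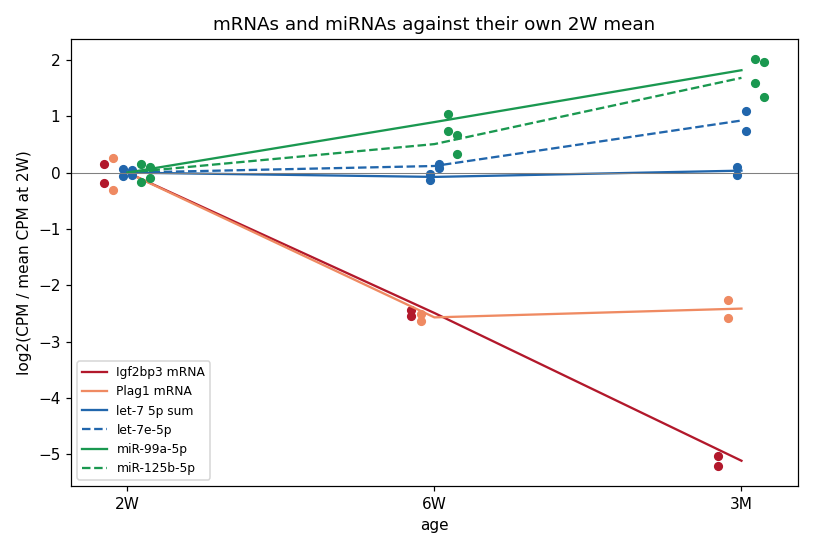
Level in each library relative to the gene's own mean at 2W (vertical axis, log2 of the CPM ratio) by age, with lines through the means of 2 libraries. Igf2bp3 ends at -5.12 and Plag1 at -2.42, the let-7 5p sum stays near 0, and miR-99a-5p and miR-125b-5p lie above 1 at 3M.

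The next list holds the enzymes and binding proteins that make or destroy let-7. All 20 listed factors were tested. For 3M against 2W, 2 rose and 1 fell, where 7.91% of 14805 genes were called higher and 3.1% lower. Trim25, the RNA-binding ubiquitin ligase known to work with LIN28A on the let-7 precursor, went from 177 and 173 CPM at 2W, through 181 and 183 CPM, to 275 and 263 CPM at 3M (log2 difference 0.62 ± 0.10, edgeR adjusted p = 0.015). Ago4, an Argonaute that carries miRNAs, went from 2.53 and 3.80 CPM to 9.14 and 6.72 CPM (1.32 ± 0.28, adjusted p = 0.032). Hnrnpa1, a binder of the let-7a precursor, went from 703 and 609 CPM to 484 and 455 CPM (-0.48 ± 0.11, adjusted p = 0.040). These 3 calls were sensitive: without either 2W library, without either 6W library, with only the 4 libraries compared or with the replicate block none was made, without 3M replicate 1 only that of Trim25 and without 3M replicate 2 those of Trim25 and Ago4.
Dicer1, the enzyme that cuts the precursor, stood at 147 and 168 CPM at 2W and 145 and 139 CPM at 3M (-0.15 ± 0.11, adjusted p = 0.439). Tut4, the terminal uridylyl transferase that LIN28 recruits, stood at 146 and 168 CPM at 2W and 154 and 102 CPM at 3M (-0.30 ± 0.20, adjusted p = 0.389). Its partner Tut7 is listed under both Tut7 and the older symbol Zcchc6, and the 2 rows together gave 257 and 263 CPM at 2W and 255 and 214 CPM at 3M. The list's median log2 difference was -0.11, beside -0.03 over all genes tested. For 6W against 2W none of the 20 was called in edgeR, 8 had an unadjusted p under 0.05 (2794 of all 14805 genes did) and DESeq2 called 1, with a list median of -0.22 beside -0.01 over all genes, where 1.47% of all genes were called higher and 0.263% lower. edgeR called 1 with only the 4 libraries compared and without either 3M library.

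Other genes known as let-7 targets were called in both directions. Of 42 listed genes, 37 were tested, and for 3M against 2W 4 rose, 1 fell and 32 were not called, where 7.91% of all genes were called higher and 3.1% lower. The 4 were Ccnd1, the cyclin of the G1 phase (0.81 ± 0.12, edgeR adjusted p = 0.012), Stard13 (1.32 ± 0.25, 0.022), the nuclear receptor Nr6a1 (1.29 ± 0.24, 0.023) and the matrix glycoprotein Thbs1 (2.82 ± 0.61, 0.035). Thbs1 rested on uneven libraries, with 10.5 and 8.71 CPM at 2W and 26.3 and 108 CPM at 3M, the higher in the replicate with the red blood cell genes, and without that replicate the log2 difference was 1.42. Arid3b, a DNA-binding protein, fell from 57.6 and 49.9 CPM to 36.7 and 37.5 CPM (-0.54 ± 0.13, adjusted p = 0.045). Without 2W replicate 1 or 2W replicate 2 none of these 5 calls was made. The list had 2 calls without either 6W library, with only the 4 libraries compared, on annotated transcripts or with the replicate block, and 10 in DESeq2.
Arid3a, the relative of Arid3b that LIN28B and let-7 are known to regulate in fetal B cells, stood at 19.5 and 21.6 CPM at 2W and 18.04 and 17.3 CPM at 3M (-0.22 ± 0.14, adjusted p = 0.371). Trim71, an embryonic let-7 target, had 2, 3, 4, 2, 0 and 4 counts from 2W to 3M and did not pass the filter, as was the case for Igdcc3, Onecut2 and Il6. Hmga1, the paralog of Hmga2, was well detected at 208 and 158 CPM at 2W and 95.5 and 128 CPM at 3M, but the difference of -0.71 ± 0.19 did not pass (adjusted p = 0.068). Adrb3, a receptor of fat cells, stood at 4.48 ± 1.34 on levels of 0.190 and 0.00 CPM at 2W and was not called (adjusted p = 0.084). Its 3M libraries were uneven, at 4.03 and 0.493 CPM, so the size of that difference is not fixed. The list's median was -0.08 against -0.03 over all genes. For 6W against 2W none of the 37 was called in edgeR, 12 had an unadjusted p under 0.05 (2794 of 14805 among all genes) and DESeq2 called 2, with a median of -0.21, where 1.47% of all genes were called higher and 0.263% lower. edgeR called 1 with only the 4 libraries compared and without either 3M library.

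Among growth partners and relatives, Igf2 and Cdkn1c fell and Cd44 rose for 3M against 2W. Igf2, the fetal growth factor whose mRNA the Igf2bp proteins bind, stood at 6.77 and 9.32 CPM at 2W, 2.08 and 2.52 CPM at 6W, and 1.86 and 1.21 CPM at 3M. The 2W libraries lay above the others, and each 6W library above both 3M libraries. The log2 difference was -2.40 ± 0.33 for 3M against 2W (edgeR adjusted p = 0.011) and -1.80 ± 0.32 for 6W against 2W (adjusted p = 0.051). The former call was lost without 2W replicate 2 (adjusted p = 0.056) and on annotated transcripts alone. Cdkn1c, an imprinted inhibitor of cell division, fell too, from 12.9 and 11.4 CPM, through 6.25 and 6.09 CPM, to 3.13 and 4.48 CPM (-1.67 ± 0.23, adjusted p = 0.011), a call lost without either 2W library (highest adjusted p 0.062). Cd44, an adhesion receptor whose mRNA is a known Igf2bp target, rose from 54.9 and 58.1 CPM to 85.2 and 85.7 CPM (0.60 ± 0.10, adjusted p = 0.019), a call that was made only without 3M replicate 1 and without 3M replicate 2 among the fits that left out 1 library, and was lost with only the 4 libraries compared and with the replicate block.
In all, 16 of the 17 listed genes were tested for 3M against 2W, with 1 called higher, 2 lower and 13 not called, where 7.91% of all genes were called higher and 3.1% lower. The median was -0.18. Actb and Myc, whose mRNAs Igf2bp proteins are also known to bind, were not called, and neither were the relatives Plagl1 (6.51 and 8.46 CPM at 2W, 9.92 and 7.97 CPM at 3M) and Plagl2 (161 and 144 CPM, then 110 and 121 CPM). H19 was not analysed here. For 6W against 2W none of the 16 was called in edgeR, 7 had an unadjusted p under 0.05 (2794 of 14805 among all genes) and DESeq2 called 4, with a median of -0.36 beside -0.01 over all genes, of which 1.47% were called higher and 0.263% lower. edgeR called 2 with only the 4 libraries compared and without either 3M library, and 1 with no filter or when scaled by total counts alone.

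General RNA-binding proteins served as a comparison. None of 26 such genes was called for 3M against 2W in edgeR, with log2 differences from -0.56 to 0.48, where 7.91% of all genes were called higher and 3.1% lower. Of the 26, 5 had an unadjusted p under 0.05, DESeq2 called 2, and edgeR called 3 without 3M replicate 1 and 2 when scaled by total counts alone. Zfp36l2, a protein that destabilises AU-rich mRNAs, was the only call for 6W against 2W, from 137 and 161 CPM to 310 and 358 CPM (1.17 ± 0.17, edgeR adjusted p = 0.036). It was not called without either 2W library or either 6W library (highest adjusted p 0.226), nor on annotated transcripts alone, with exact symbols or with the replicate block. For 3M against 6W no gene of any of these 4 lists was called in edgeR, and DESeq2 called 1 each of the let-7 factors, the let-7 targets and the RNA-binding proteins. Without 3M replicate 1 edgeR called 1 of the let-7 targets, higher at 3M. In that comparison 0% of all genes were called higher and 0.00675% lower in edgeR, 2113 genes had an unadjusted p under 0.05 and DESeq2 called 341. The single gene called is among the 7 chosen on these values, so nothing is read from it.

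**Figure D4:**
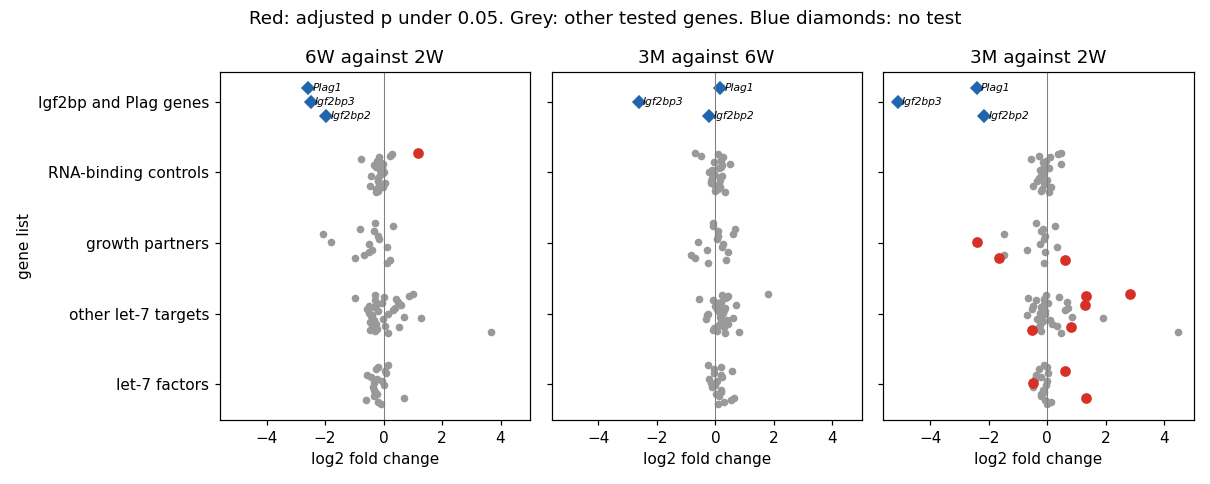
Log2 fold change (horizontal axis) of each tested gene of 4 lists in the 3 comparisons, red where the edgeR adjusted p was under 0.05 and grey otherwise, with the 3 genes of the fetal programme that passed the filter as blue diamonds without a test. The red points for 3M against 2W lie on both sides of 0, and Igf2bp3 alone stays near -2.6 for 3M against 6W.

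Marker genes of several cell types differed in level between the same ages. Whether cell shares changed cannot be told from these levels. A part of tissue make-up in the levels of Igf2bp3, Plag1 and Igf2bp2 was not tested. The 10 thymocyte markers summed to 16330 and 17896 CPM at 2W and 13133 and 13377 CPM at 3M, and 4 of them (Cd4, Cd8a, Ptcra and Rag1) fell for 3M against 2W, where 7.91% of all genes were called higher and 3.1% lower. The 12 markers of cycling cells summed to 5100 and 5198 CPM at 2W, 4107 and 4139 CPM at 6W, and 3687 and 3024 CPM at 3M, and 6 of them fell. The 8 adipocyte markers went the other way, from 45.8 and 45.7 CPM at 2W, through 145 and 153 CPM, to 335 and 174 CPM at 3M, with 6 rising. The 10 B and myeloid cell markers went from 298 and 258 CPM at 2W, through 618 and 565 CPM at 6W, to 648 and 637 CPM at 3M, with 5 rising. Of the cycling cell calls, only that of Mki67 was made with only the 4 libraries compared or with the replicate block. With only the 4 libraries no thymocyte call was made, and those of Fabp4, Adgre1 and C1qa were lost too.
The 10 fibroblast markers summed to 570 and 622 CPM at 2W and 486 and 393 CPM at 3M, with 3 rising (Pdgfra, Dcn and Dpt) and 3 falling (Col1a1, Col3a1 and Fbn1). The 12 markers of thymic epithelium summed to 1870 and 1722 CPM at 2W and 2178 and 2331 CPM at 3M, with 2 rising and 1, Foxn1, falling. For 3M against 2W no endothelium or red blood cell marker was called in edgeR, 3 endothelium markers and 0 red blood cell markers had an unadjusted p under 0.05, and DESeq2 called 1 and 0. Of the 30 marker calls, 25 were lost without 2W replicate 1 or 2W replicate 2, and 5 (Col1a1, Col3a1, Cidec, Cfd and Lyz2) were made whichever library was left out. No marker list was at 0 for any gene in all libraries. For 6W against 2W edgeR called Cidec, Cfd, Adipoq, Lyz2 and Itgax higher and no other marker, where 1.47% of all genes were called higher. Each of these calls was lost on annotated transcripts alone and with the replicate block. DESeq2 called 6 adipocyte, 6 B and myeloid, 4 fibroblast and 1 thymic epithelium markers in that comparison. Whether any of these marker lists bears on the Igf2bp3 level, which at 3M was 2.88% of that at 2W, was not tested.

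The 5 genes whose course over the 6 libraries was most like that of Igf2bp3 were Tcf12 (Pearson r of log2(CPM + 1) 0.998), Dynlt1 (0.998), B3glct (0.997), Traip (0.996) and Dnah8 (0.995), as a description over 6 libraries that share their ages. Tcf12, the E protein that acts in thymocyte development, went from 602 and 601 CPM at 2W, through 495 and 492 CPM, to 405 and 398 CPM at 3M. The measure takes no account of size: the range over the libraries on this scale was 0.60 for Tcf12, at most 0.87 for the other 4 and 4.89 for Igf2bp3. Plag1 had an r of 0.847 with Igf2bp3 and Igf2bp2 an r of 0.861. Dynlt1 belongs to a family of near-identical copies, so its counts are uncertain.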

How the data were processed

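Total RNA (rRNA-depleted, strand-specific) and small RNA of mouse thymus were sequenced by the authors at 2W, 6W and 3M, 2 libraries per age and kind. Deposited were estimated counts and FPKM per transcript, and tag counts per miRNA and per circRNA junction. The submitters' processing notes name build mm8 and Bowtie 0.12.2, with no role given. The 7 genes and all lists were chosen with earlier results of these data known. Estimated counts were summed per gene symbol (symbols differing only in case joined) and rounded. Rows without a symbol, 0.699% to 1.2% of counts, were left out. edgeR 4.0.16 (TMM, filterByExpr by age, quasi-likelihood test, Benjamini-Hochberg adjusted p under 0.05) was fitted to all 6 libraries. The script was tested on simulated data. Named from each list were up to 5 genes with the smallest adjusted p, where under 0.05, per comparison, and Trim71, Arid3a, Igf2, Dicer1 and Tut4. let-7 features over 100 CPM were given in full. A further listed gene that did not pass the filter is not reported here. Additional remarks on Hmga1, Adrb3, Plagl1, Plagl2, Actb, Myc, Tut7 and the neighbours of let-7 were chosen after their values were seen. With 2 libraries against 2, no exact permutation test can give a p under 0.333. Alternatives were DESeq2 1.42.0, other scaling, filters and transcript sets, the replicate block, and each library left out. Where that left 1 library at an age, it was assumed to vary like the others.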

Additional observations from a re-analysis of the deposited data

How the results depend on the processing

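The log2 differences of Igf2bp3, Plag1 and Igf2bp2 kept their sign between 2W and either later age under every alternative. For Igf2bp2, which passed the filter through its 2W libraries, the kept sign is no support. For 3M against 2W they ran from -5.28 to -4.82 for Igf2bp3 and from -2.67 to -2.10 for Plag1, and for 3M against 6W from -2.70 to -2.44 for Igf2bp3. Igf2bp2 ran from -2.69 (without 6W replicate 1) to -1.35 (summed FPKM) for 6W against 2W and from -2.29 to -1.38 for 3M against 2W, and from -0.71 to 0.52 for 3M against 6W when 1 library was left out. Counts of calls depended strongly on the fit. For 6W against 2W the 257 genes called became 662 with only the 4 libraries compared, 888 in DESeq2, 124 with exact symbols, 467 with no filter, 395 with total counts as the only scaling, 4 on annotated transcripts and 5 with the replicate block. For 3M against 6W the single gene became 341 in DESeq2 and 19 with no filter, and 0 with only the 4 libraries compared, exact symbols, annotated transcripts or the replicate block. For 3M against 2W the 1630 genes became 663 with only the 4 libraries compared, 922 on annotated transcripts and 742 with the replicate block. Leaving out 1 library gave 0 to 658 genes for 6W against 2W (2 or fewer without any 2W or 6W library, 615 or more without a 3M library), 0 to 11 for 3M against 6W (11 without 3M replicate 2) and 239 to 1741 for 3M against 2W (239 and 289 without a 2W library, 567 and 572 without a 6W library). Of miRNAs, no filter gave 109 in place of 71 for 6W against 2W, and for 3M against 6W the 7 became 47 with no filter, 44 in DESeq2 and 12 with only the 4 libraries compared. Leaving out 1 library gave 3 to 105, 0 to 22 and 158 to 208 miRNAs in the 3 comparisons, the lowest without 6W replicate 2, without either 6W library and without 3M replicate 1. For let-7 features DESeq2 called 1 for 3M against 6W in place of 0, and leaving out 1 library gave 1 to 2 for 3M against 2W.
The replicate numbers did not pair the libraries (correlations of same-numbered deviations from the age means of -0.06, -0.18 and 0.35 for genes, and 0.22, -0.15 and -0.07 for miRNAs), and the replicate block changed no call of a let-7 feature. Depth limits Hmga2, Igf2bp1, Lin28a and Lin28b, at 12 counts or fewer per library.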
